A study of Bos taurus with 24 samples.

Results

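The 8 genes described here cover how bovine skin fibroblasts make cholesterol, sense it, oxidise it and pass it out of the cell. They are HMGCS1, SQLE and IDI1 (synthesis), INSIG1, SREBF1 and SREBF2 (control), CH25H (an oxysterol enzyme) and ABCA1 (export). They were chosen by name, as genes of 1 biological group, out of 27371 different gene symbols in the expression tables. The choice was made with earlier results of these data known. The shares of all rows given beside their counts are thus a description and no test of the group. Each of the 8 symbols stood on 1 row of the tables, and all 8 rows were abundant enough to be tested in all 12 comparisons.

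Cells build cholesterol from acetyl units through the mevalonate pathway, and they hold its level steady through a feedback loop. When membrane cholesterol in the endoplasmic reticulum falls, the transcription factors SREBP-1 and SREBP-2 (encoded by SREBF1 and SREBF2) are released and switch on genes of synthesis and of lipoprotein uptake. INSIG proteins hold them back when sterols or 25-hydroxycholesterol, the product of CH25H, are plentiful, while oxysterols also activate the liver X receptors, which raise export genes such as ABCA1. In macrophages, CH25H and this loop are known to respond to microbial signals.

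RNA-Seq had been carried out on fibroblasts, the collagen-making cells of connective tissue, grown from the skin of 4 Holstein (dairy) and 4 Angus (beef) heifers of like age that were kept at the same site. Each culture came from a single animal and was sampled without LPS (0 h) and at 2 h and 8 h after 100 ng/ml of lipopolysaccharide (LPS, from the outer membrane of Gram-negative bacteria), which gave 6 groups of 4 and 24 samples in all. The medium held fetal bovine serum, and lysates of duplicate wells were pooled into 1 sample. No sample kept without LPS for 2 h or 8 h was among the 24, so the effect of LPS and that of time or handling cannot be told apart. Per the paper, Holstein calves are taken from the dam soon after birth and fed milk replacer, while Angus calves nurse for months. Breed and early rearing thus cannot be told apart. Animals of a breed are the replicates. The p-values between breeds at 1 hour measure the spread between animals. The LPS fits without a block treat the samples of an animal as independent. With both breeds together, their spread also includes the breed difference. In the fits with the animal as a block, p-values measure the spread of changes within animals.

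Summed counts were 51014538 to 104406293 per sample, so 1 CPM (a count scaled to library size) stood for 51 to 104.4 counts. In the labelled fibroblasts, all 10 fibroblast markers reached 1 CPM in every group, and their summed level was 54800 to 75800 CPM in Holstein samples against 32800 to 54400 CPM in those of Angus. Of 9 macrophage and leukocyte markers with a row, 1 (CD68) reached a mean of 1 CPM in each group, and the list summed to at most 8.02 CPM in any sample. The keratinocyte list summed to 1.51 to 2.76 CPM in 7 animals and to 13.8 to 16.1 CPM in Holstein animal 1. Endothelial markers summed to 2.51 to 5.67 CPM and adipocyte markers to 11.5 to 32.3 CPM. The collagen gene COL1A1 had 66.2 to 67.1 covered bases per count in 4 samples and 111.8 to 119.0 in the other 20. These 4 are called samples with another counting of COL1A1. Of them, 3 were taken at 0 h (Angus animal 4 and Holstein animals 2 and 4) and 1 at 2 h (Angus animal 3). The rows of the 8 genes showed no such break, with for example 75.6 to 76.6 covered bases per HMGCS1 count in those 4 samples and 74.7 to 77.7 in the other 20. As whole libraries, the 4 samples had 96.23% to 96.54% of reads matched, against at most 95.25% in the other 20. Their summed counts were 1.562 to 1.712 times the matched reads, against at most 1.542 times. What set these samples apart was not tested. Results of the 8 genes without these 4 samples are given where they change a call.

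Positions are on the UMD v3.1 build, and a row covers the whole gene with its introns. HMGCS1 lies on chromosome 20 from 31451294 to 31477033, SQLE on chromosome 14 from 16723393 to 16745626, and IDI1 on chromosome 13 from 46682710 to 46685837. INSIG1 lies on chromosome 4 from 117906798 to 117920023 and CH25H on chromosome 26 from 10976193 to 10978251. ABCA1 lies on chromosome 8 from 96274035 to 96390357. The rows of SREBF1 (chromosome 19 from 35234637 to 35250672) and SREBF2 (chromosome 5 from 113377700 to 113416353) overlap the rows of MIR33B and MIR33A, so reads of these microRNA precursors cannot be separated from those of the host genes. Levels of different genes are not set against each other, because the rows differ in length.

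The synthesis enzymes rose 2 h after LPS and were still above the 0 h level at 8 h. SQLE, squalene epoxidase, which makes the first oxygenation of the sterol branch, went from 24.4, 33.2, 33.8 and 27.4 CPM in Angus animals 1 to 4 at 0 h to 50.3, 74.1, 70.2 and 64.2 CPM at 2 h. In Holstein animals 1 to 4 it went from 33.6, 29.6, 24.1 and 23.7 CPM to 54.8, 53.9, 38.3 and 34.7 CPM. At 8 h it stood at 38.2, 55.7, 42.8 and 66.7 CPM in Angus and at 45.1, 49.8, 35.5 and 33.9 CPM in Holstein. Every one of the 8 samples at 2 h, and every one at 8 h, lay above all 8 samples at 0 h, whose highest was 33.8 CPM. Such a gap between hours was seen for SQLE and INSIG1 at 2 h and for SQLE and SREBF1 at 8 h, and for 7.33% and 2.86% of all rows tested. With both breeds together the log2 fold change was 0.93 (SE, the standard error, of 0.15 and a false discovery rate, FDR, of 4.89e-08 in the edgeR likelihood-ratio test) at 2 h and 0.67 (SE 0.14, FDR 8.59e-05) at 8 h, or 1.91-fold and 1.59-fold. From 2 h to 8 h it was -0.26 (FDR 0.317), and -0.25 (FDR 0.00747) with the animal as a block, a fit in which 48.4% of rows were called.

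HMGCS1, which encodes the cytosolic synthase that makes HMG-CoA at the head of the pathway, behaved much like SQLE. Its levels at 0 h were 29.6, 43.1, 46.5 and 34.7 CPM in Angus and 51.6, 45.7, 37.1 and 38.8 CPM in Holstein. At 2 h they were 57.7, 91.3, 88.8 and 87.7 CPM in Angus and 77.7, 88.3, 56.0 and 51.0 CPM in Holstein, and at 8 h 49.7, 77.6, 54.3 and 86.1 CPM and 75.3, 87.7, 60.5 and 52.0 CPM. The hours overlapped slightly, because the lowest samples at 2 h (Holstein animal 4) and 8 h (Angus animal 1) lay below Holstein animal 1 at 0 h, but every animal rose from its own 0 h level. The log2 fold change was 0.87 (SE 0.15, FDR 2.14e-07) at 2 h and 0.73 (SE 0.15, FDR 3.92e-05) at 8 h.

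IDI1, the isomerase that interconverts the isoprene building blocks, rose less. It went from 7.9, 12, 13.7 and 11.7 CPM in Angus at 0 h to 14.5, 17.6, 21.1 and 20.0 CPM at 2 h and 14.7, 17.9, 16 and 24.1 CPM at 8 h. In Holstein it went from 11.5, 9.5, 7.89 and 7.27 CPM to 14.5, 13.9, 10.6 and 8.3 CPM and then to 14.1, 14.6, 11.3 and 9.18 CPM. All Angus samples with LPS lay above all Angus samples without it, whereas the Holstein hours overlapped. Its log2 fold change with both breeds together was 0.56 (SE 0.19, FDR 0.0193) at 2 h and 0.57 (SE 0.18, FDR 0.0201) at 8 h. Without the 4 samples named above these values were 0.41 (FDR 0.247) and 0.53 (FDR 0.13), and without Angus animal 1 they were 0.52 (FDR 0.0645) and 0.54 (FDR 0.0608), so neither call held. Leaving out Holstein animal 2 also ended the call at 8 h (0.57, FDR 0.061).

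INSIG1, the sterol-dependent anchor that keeps SREBPs in the endoplasmic reticulum and is itself an SREBP target, rose at 2 h and fell again by 8 h. Its levels were 4.5, 5.82, 8.93 and 4.94 CPM in Angus and 9.49, 7.64, 5.82 and 6.76 CPM in Holstein at 0 h. They reached 12.9, 13.9, 15.2 and 16.5 CPM in Angus and 19.4, 20.2, 11.1 and 14.1 CPM in Holstein at 2 h, and were 7.18, 8.27, 7.38 and 9.08 CPM and 9.49, 11.4, 7.41 and 6.87 CPM at 8 h. All 8 samples at 2 h lay above all 8 at 0 h, and at 8 h the ranges overlapped. The rise at 2 h was 2.28-fold (log2 fold change 1.19, SE 0.17, FDR 3.97e-10), and from 2 h to 8 h the level fell by 0.87 on the log2 scale (SE 0.14, FDR 5.07e-08). At 8 h against 0 h the log2 fold change was 0.31 (95% interval -0.02 to 0.64, FDR 0.242), and 0.34 (FDR 0.0242) when the animal was entered as a block.

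Against 0 h, the mRNA of SREBF2 was higher at 2 h and that of SREBF1 lower at 8 h, and both fell from 2 h to 8 h. SREBF2, whose product mainly serves cholesterol genes, had levels at 0 h of 49.8, 49.3, 71.3 and 53.0 CPM in Angus (55.8 ± 10.4, mean ± SD, n = 4) and 71.9, 62.8, 54.2 and 60.1 CPM in Holstein (62.3 ± 7.38, n = 4). It stood at 67.8, 67.4, 77.0 and 69.2 CPM in Angus and 81.5, 79.5, 65.4 and 72.9 CPM in Holstein at 2 h, and at 57.0, 56.6, 58.5 and 54.8 CPM and 65.5, 64.0, 52.9 and 52.4 CPM at 8 h. It was higher at 2 h than at 0 h in 8 of 8 animals and lower at 8 h than at 2 h in 8 of 8. The log2 fold change was 0.29 (SE 0.1, FDR 0.0174) at 2 h and -0.33 (SE 0.08, FDR 0.000369) from 2 h to 8 h. The rise at 2 h was past the FDR limit neither without the 4 samples named above (0.26, FDR 0.158) nor with scaling by total counts (0.23, FDR 0.0812), and under that scaling the later fall was -0.19 (FDR 0.0642).

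SREBF1, whose product mainly serves fatty acid genes, was lower at 8 h. Its levels at 0 h were 42.4, 45.1, 56.5 and 48.5 CPM in Angus and 48.8, 39.3, 41.5 and 59.1 CPM in Holstein. At 2 h they were 38.3, 42.7, 46.2 and 37.9 CPM in Angus and 51.4, 44.8, 45.1 and 60.5 CPM in Holstein, and at 8 h 31.0, 34.1, 36.5 and 31.6 CPM and 31.9, 23.6, 25.8 and 35.2 CPM. All 8 samples at 8 h lay below all 8 at 0 h. SREBF1 fell by 0.62 on the log2 scale from 0 h to 8 h (SE 0.11, FDR 3.26e-06), which left 0.653 of its 0 h level, and by 0.55 from 2 h to 8 h (SE 0.12, FDR 3.5e-05). At 2 h against 0 h the difference was -0.06 (95% interval -0.29 to 0.17, FDR 0.823).

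**Figure D1:**
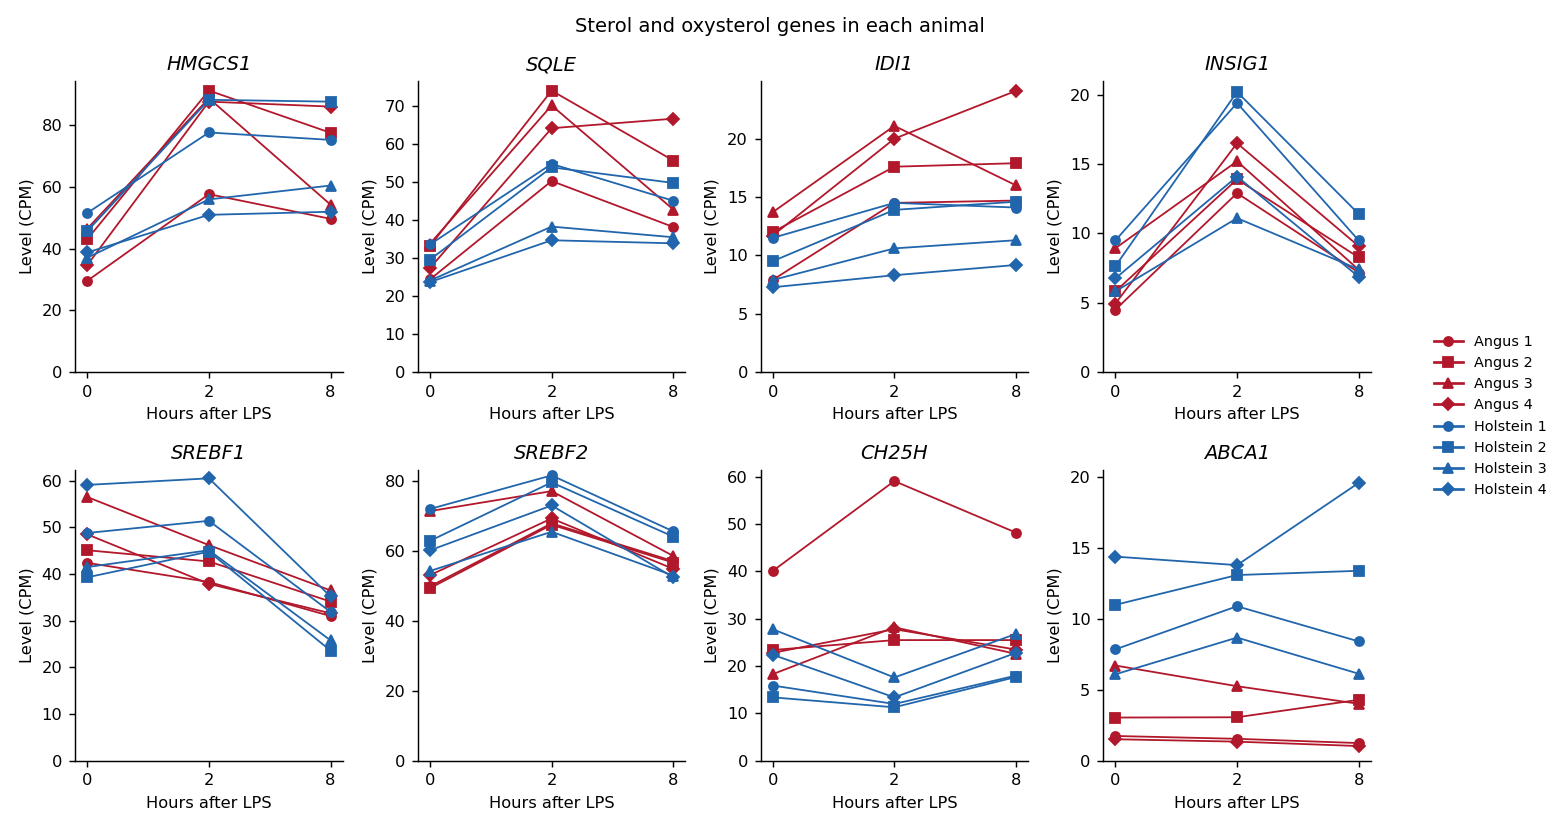
Level of each of the 8 genes in CPM (vertical axis, from 0) against the sampling hour (horizontal axis, drawn with equal steps). Each line is 1 animal, red for Angus and blue for Holstein. SQLE and INSIG1 at 2 h lie above every 0 h sample, SREBF1 at 8 h lies below every 0 h sample, and ABCA1 is separated by breed at 2 h and 8 h.

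CH25H and ABCA1 were not past the FDR limit at either hour with both breeds together. The log2 fold change of CH25H, which makes 25-hydroxycholesterol, was 0.08 (95% interval -0.54 to 0.69, FDR 0.932) at 2 h and 0.15 (-0.29 to 0.6, FDR 0.751) at 8 h. With the animal as a block the value at 8 h was 0.16 (FDR 0.0224). ABCA1, the transporter that loads cholesterol onto apolipoprotein A-I, had 0.14 (-0.89 to 1.17, FDR 0.924) at 2 h and 0.14 (-0.95 to 1.23, FDR 0.919) at 8 h. The ABCA1 levels of the breeds overlapped at 0 h and lay apart at 2 h and 8 h, as described further on.

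In counts, 5 of the 8 genes were past the FDR limit of 0.05 at 2 h, all higher, where 10.8% of the 20157 rows tested were called higher and 11.2% lower. At 8 h 3 were higher and 1 (SREBF1) lower, against 6.55% and 6.25% of all 20368 rows. From 2 h to 8 h 3 were lower (INSIG1, SREBF1 and SREBF2), against 11.6% of rows lower and 12.2% higher. At 2 h 1 gene (INSIG1) also more than doubled, under a rule of 2-fold, FDR under 0.05 and a mean above 1 CPM that 2.08% of rows met in that direction. Within animals, 5 genes (HMGCS1, SQLE, IDI1, INSIG1 and SREBF2) rose in all 8 from 0 h to 2 h, 4 (HMGCS1, SQLE and IDI1 higher, SREBF1 lower) moved 1 way in all 8 by 8 h, and 3 (INSIG1, SREBF1 and SREBF2) fell in all 8 from 2 h to 8 h. Of all rows, 36.1%, 27.8% and 34.8% moved 1 way in all 8 animals. The 2 h and 8 h comparisons share their 0 h samples, and the genes were chosen with earlier results of these data known. The median log2 fold change of the 8 genes was 0.43 at 2 h and 0.23 at 8 h, beside 0 and -0.01 over all rows.

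**Figure D2:**
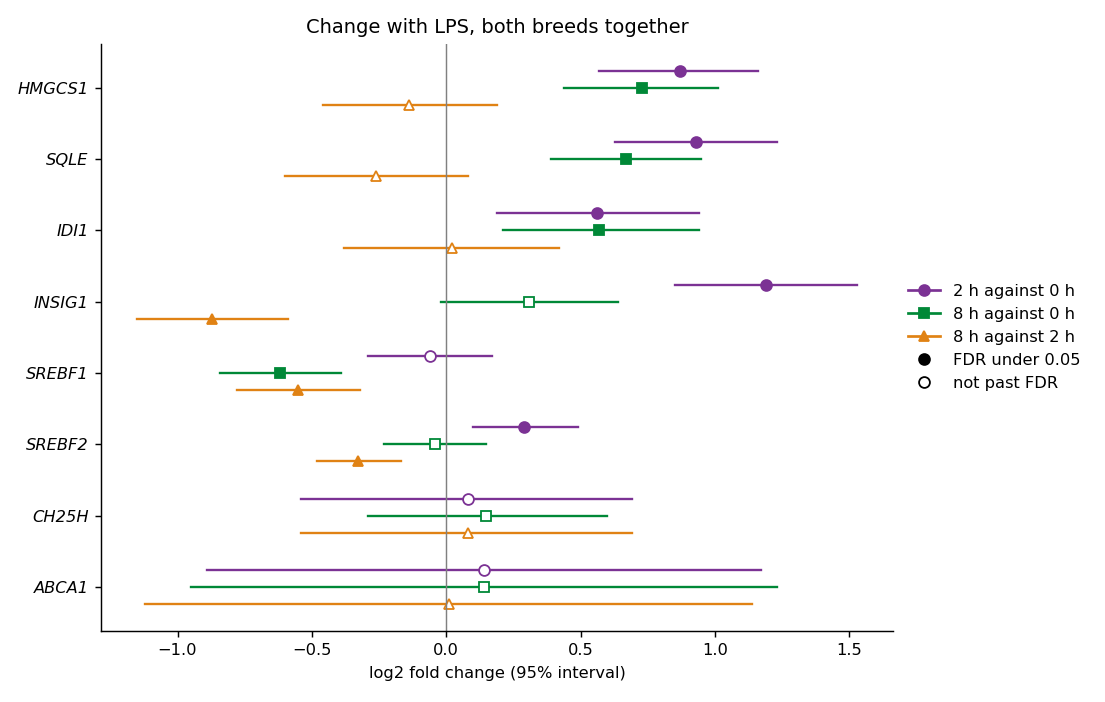
Log2 fold change (horizontal axis) of each gene for 2 h against 0 h, 8 h against 0 h and 8 h against 2 h, both breeds together, with 95% intervals as bars. Filled symbols are past an FDR of 0.05. HMGCS1, SQLE and IDI1 are above 0 at both hours, INSIG1 and SREBF2 are above 0 at 2 h alone among those filled, and SREBF1 is below 0 at 8 h.

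Part of the pathway was higher with LPS, in a list of 20 enzymes of cholesterol synthesis that includes HMGCS1, IDI1 and SQLE. At 2 h 6 were past the FDR limit and at 8 h 11, all of them higher, with a median log2 fold change of 0.18 and 0.36. The shares of all rows called higher were 10.8% and 6.55%. With the animal as a block, the counts were 11 higher and 3 lower at 2 h and 14 at 8 h, all higher, where 47.5% and 40.7% of all rows were called. Of the enzymes picked out after their values were seen, ACAT2, LSS and SC5D were the other genes higher at 2 h, by 0.53, 0.61 and 0.41. The genes that were past the limit at 8 h and not at 2 h were MVD (0.34 at 8 h), FDPS (0.56), FDFT1 (0.48), CYP51A1 (0.42), MSMO1 (0.45) and NSDHL (0.39). At 2 h these 6 had log2 fold changes of -0.04 to 0.29, and of the 6 FDFT1 alone differed past the FDR limit between 2 h and 8 h (0.52, FDR 0.0156). MVK and PMVK, the mevalonate kinases, were past the limit at neither hour (-0.06 and -0.37 at 2 h, 0 and -0.16 at 8 h).

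**Figure D3:**
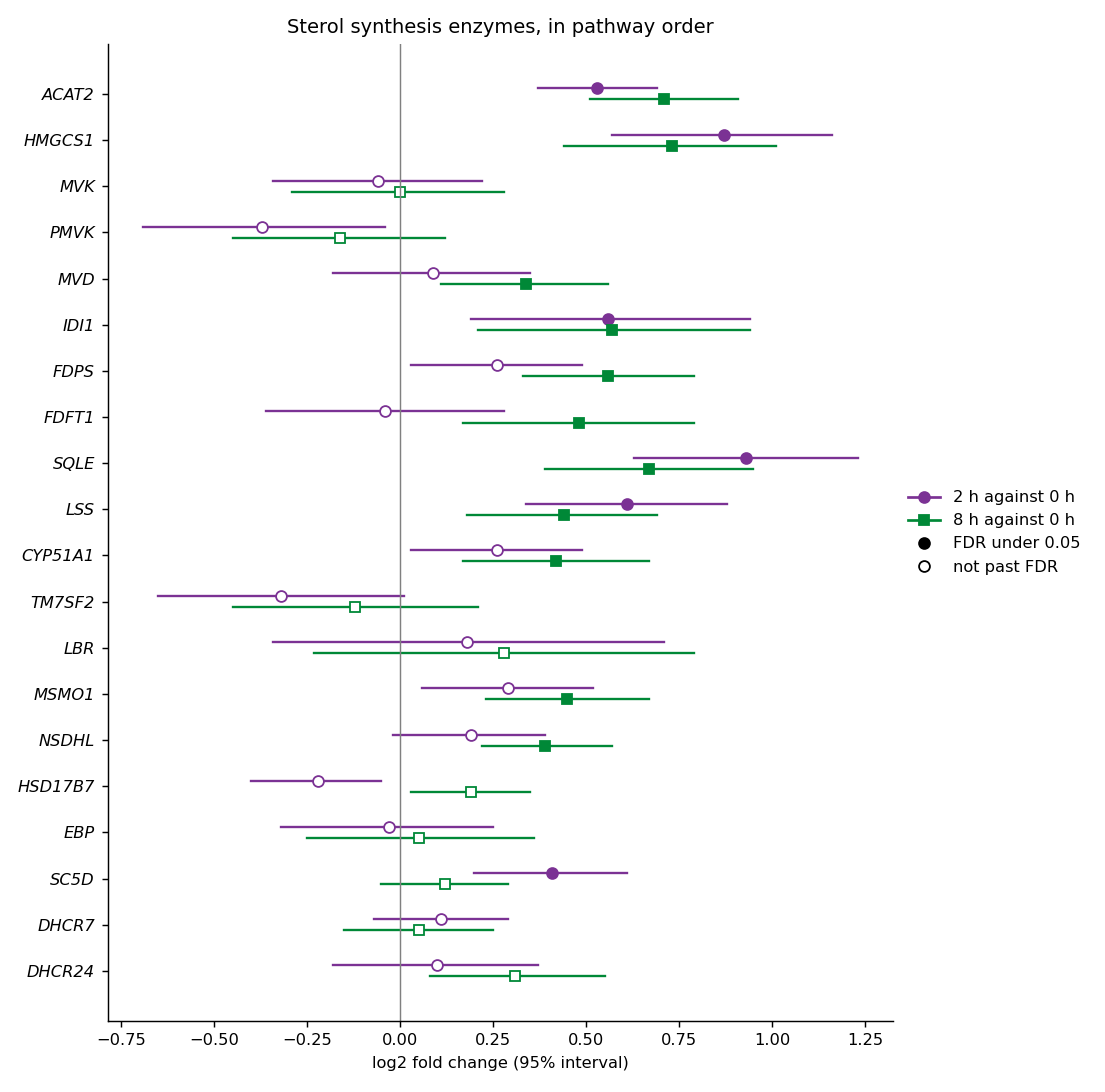
Log2 fold change with 95% intervals (horizontal axis) of 20 sterol synthesis enzymes, ordered from acetyl-CoA to cholesterol, at 2 h and 8 h against 0 h with both breeds together. Filled symbols are past an FDR of 0.05, which 6 enzymes reach at 2 h and 11 at 8 h, all above 0.

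Among 11 other genes of lipoprotein uptake and cholesterol traffic that were tested, 2 were higher and 1 lower at 2 h, and 1 (NPC1, a lysosomal cholesterol exporter, -0.25, FDR 0.00627) was past the limit at 8 h, lower. Of all rows, 10.8% were higher and 11.2% lower at 2 h, and 6.25% lower at 8 h. In the blocked fits 3 of the 11 were higher and 2 lower at 2 h, and 1 was higher and 3 lower at 8 h. Those fits called 47.5% and 40.7% of all rows. OSBP (0.38), an oxysterol-binding lipid carrier, and SCARB1 (0.57), the receptor for high-density lipoprotein, were higher at 2 h (FDR 3.09e-06 and 0.00221), and VLDLR (-0.26, FDR 0.0218), a receptor for triglyceride-rich lipoproteins, was lower. From 2 h to 8 h OSBP fell by 0.47 (FDR 1.29e-09) and SCARB1 by 0.36 (FDR 0.0309) on the log2 scale.

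In a list of 11 genes of SREBP control, which holds INSIG1, SREBF1 and SREBF2, 2 were higher and 2 lower at 2 h, and 3 were past the limit at 8 h, all lower. Over all rows 10.8% were higher and 11.2% lower at 2 h, and 6.25% lower at 8 h. With the animal as a block these were 4 higher and 4 lower, and 1 higher and 6 lower, where 47.5% and 40.7% of all rows were called. INSIG2, the second INSIG gene, did not follow INSIG1. Its log2 fold change was -0.19 (SE 0.13, FDR 0.376) at 2 h and -0.29 (SE 0.1, FDR 0.043) at 8 h, and the blocked value at 2 h was -0.19 (FDR 4e-05). MBTPS2 (-0.4), the protease that makes the final cut that frees SREBPs, and ERLIN2 (-0.33), a membrane protein of the endoplasmic reticulum that takes part in sterol-linked protein degradation, were the genes lower at 2 h. SCAP, the sterol sensor that escorts SREBPs, had -0.06 (FDR 0.738) at 2 h and -0.17 (FDR 0.246) at 8 h.

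Of the fatty acid genes that SREBP-1 is known to drive, 9 were tested with both breeds together, of which 2 were past the FDR limit at 2 h and 1 at 8 h, all higher, where 10.8% and 6.55% of all rows were. Without an animal block, the alternatives gave 0 to 3 genes higher at 2 h and 0 to 2 at 8 h. SCD, the stearoyl-CoA desaturase, had a log2 fold change of 0.77 (SE 0.27, FDR 0.0229) at 2 h and 0.35 (FDR 0.448) at 8 h, and with the animal as a block the value at 8 h was 0.42 (FDR 0.000637). FASN, the fatty acid synthase, rose by 0.38 at 2 h (FDR 0.0265) and 0.39 at 8 h (FDR 0.0151). With the animal as a block, 5 of the 9 were higher and 2 lower at 2 h, and 4 higher and 2 lower at 8 h. Those fits called 47.5% and 40.7% of all rows.

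When the breeds were fitted apart, HMGCS1, SQLE and INSIG1 were past the FDR limit at 2 h in both, and IDI1 in Angus. That is 3 of 8 genes in Holstein, where 9% of rows were higher and 8.24% lower, and 4 of 8 in Angus, where 6.88% were higher and 6.87% lower. In Angus HMGCS1 (2.11-fold), SQLE (2.18-fold) and INSIG1 (2.41-fold) more than doubled, against 1.57-fold, 1.63-fold and 2.17-fold in Holstein. The 2-fold rule was thus met upward by 3 genes in Angus and 1 in Holstein, and by 1.97% and 2.41% of rows. At 8 h HMGCS1 and SQLE were higher and SREBF1 lower in each breed, against 8.19% of rows higher and 6.54% lower in Holstein and 1.94% and 1.95% in Angus. At 8 h HMGCS1 had a log2 fold change of 0.67 in Holstein and 0.79 in Angus, SQLE one of 0.57 and 0.77, and SREBF1 one of -0.69 and -0.54. In Holstein the calls of HMGCS1 and SQLE at both hours did not hold without the 4 samples named above, which left 2 Holstein samples at 0 h. The log2 fold changes were then 0.62 and 0.65 at 2 h and 0.64 and 0.52 at 8 h, with FDR values of 0.0691 to 0.151. ABCA1 at 2 h in Holstein was past the limit without these samples (0.73, FDR 0.0269), where all Holstein samples gave 0.24 (FDR 0.699). Without Holstein animal 2 HMGCS1 at 2 h (FDR 0.0712) and SQLE at 8 h (FDR 0.0806) fell short as well. In Angus IDI1 at 2 h had an FDR of 0.0743 without those samples, 0.0809 without animal 2 and 0.097 without animal 4, and HMGCS1 at 8 h one of 0.0722 without those samples. In Angus at 8 h 0 of 8 genes stayed past the limit without animal 2 or without animal 4, and 5 did without animal 3.

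Entering the animal as a block, with each animal compared with itself, raised the count at 2 h to 7 of 8 genes in each breed, where 35.8% of rows were called in each. In Holstein IDI1 (0.38, FDR 4.16e-05), SREBF2 (0.26, FDR 2.67e-06), CH25H (-0.52, FDR 3.87e-07) and ABCA1 (0.29, FDR 0.028) were added. In Angus SREBF2 (0.35, FDR 0.000125), SREBF1 (-0.22, FDR 0.0113) and CH25H (0.4, FDR 0.000394) were added. CH25H was thus called lower in Holstein and higher in Angus in the blocked fits. In those fits at 8 h IDI1 was also past the limit in both breeds (0.45 with FDR 5.89e-06 in Holstein and 0.68 with FDR 1.46e-05 in Angus), where 35.2% and 20.7% of rows were.

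Whether the response to LPS differed between the breeds was tested as an interaction. In the edgeR likelihood-ratio test without a block, 0 of the 8 genes were past the FDR limit at 2 h or at 8 h, where 0.437% and 0.137% of rows were. At an unadjusted p under 0.05 there was 1 gene at 2 h (CH25H) and 0 at 8 h, and the quasi-likelihood F test and DESeq2 gave 0 past the FDR limit at both hours as well. With the animal as a block, 4 of 8 were past it at 2 h, where 4.28% of rows were, and 0 at 8 h (1 at an unadjusted p under 0.05), where 2.59% were. These were CH25H (Holstein minus Angus -0.91, FDR 3.06e-07), SQLE (-0.42, FDR 0.00028), SREBF1 (0.33, FDR 0.00545) and HMGCS1 (-0.44, FDR 0.0241). With the F test on the blocked fit CH25H (FDR 0.0113), SQLE (FDR 0.0189) and SREBF1 (FDR 0.0373) remained past the limit, as did 2.26% of rows, and HMGCS1 did not (FDR 0.0938).

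The changes within each animal are given on the log2 scale. From 0 h to 2 h CH25H changed by 0.56, 0.13, 0.63 and 0.29 in Angus animals 1 to 4 and by -0.4, -0.24, -0.66 and -0.73 in Holstein animals 1 to 4. All Angus animals rose and all Holstein animals fell. SQLE rose by 1.04 to 1.22 in Angus and by 0.55 to 0.86 in Holstein, again with no overlap. SREBF1 changed by -0.35 to -0.08 in Angus and by 0.03 to 0.19 in Holstein. That is 3 of 8 genes whose changes did not overlap between breeds, and 10% of the 20157 rows showed no overlap. Changes in opposite directions in all animals of the breeds, as for CH25H and SREBF1, were seen in 0.868% of rows. HMGCS1, IDI1, INSIG1, SREBF2 and ABCA1 overlapped, HMGCS1 narrowly, with 0.93 to 1.33 in Angus and 0.39 to 0.95 in Holstein.

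**Figure D4:**
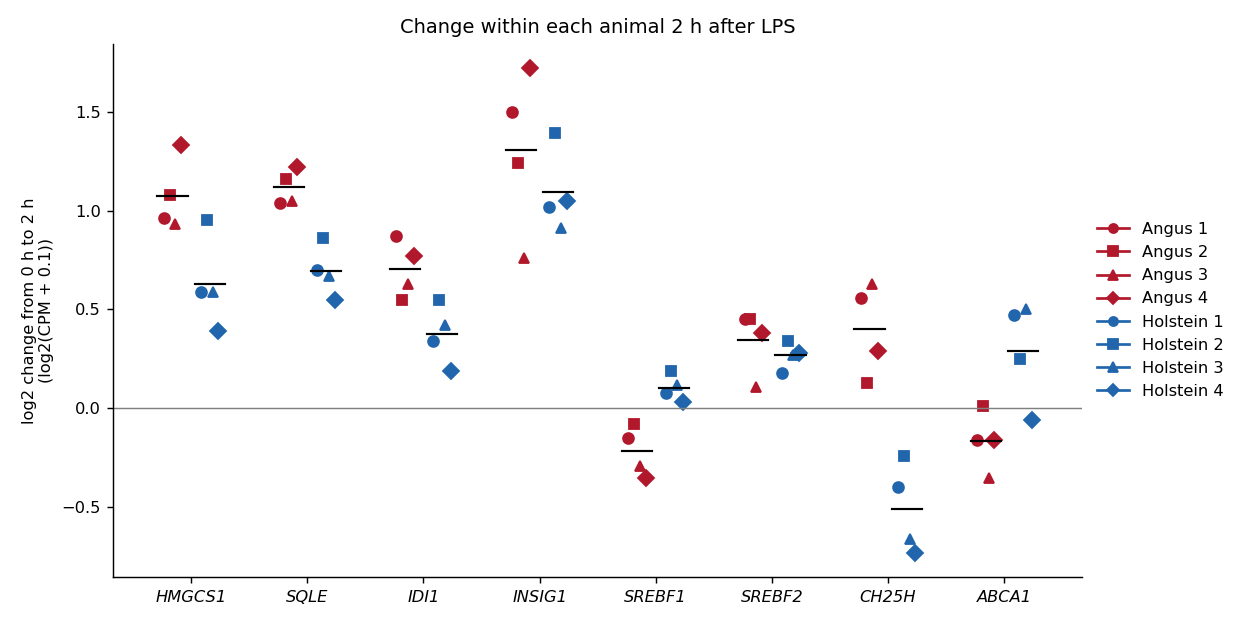
Change of log2(CPM + 0.1) from 0 h to 2 h (vertical axis) in each animal for the 8 genes, red for Angus and blue for Holstein, with the mean of the 4 animals as a black bar. The points of the breeds do not overlap for SQLE, SREBF1 and CH25H, and those of CH25H lie on opposite sides of 0.

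From 2 h to 8 h the order was turned. CH25H rose by 0.58 to 0.76 in Holstein and changed by -0.32 to 0 in Angus, and SREBF1 fell in all 8 animals, with -0.92 to -0.69 in Holstein and -0.34 to -0.26 in Angus. Neither pair of ranges overlapped, which was so for 11.9% of rows, and this difference between breeds was not tested in a fit. At 8 h against 0 h the changes of CH25H were 0.04 to 0.3 in Angus and -0.05 to 0.4 in Holstein, so that the breeds overlapped again, as they did for all 8 genes over that interval, while 7.33% of rows showed no overlap.

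ABCA1 differed between the breeds by more than the other 7 genes at each hour. Its levels at 0 h were 1.75, 3.05, 6.72 and 1.52 CPM in Angus and 7.86, 11, 6.1 and 14.4 CPM in Holstein. At 2 h they were 1.55, 3.07, 5.26 and 1.35 CPM in Angus and 10.9, 13.1, 8.69 and 13.8 CPM in Holstein, and at 8 h 1.25, 4.3, 4.02 and 1.04 CPM and 8.42, 13.4, 6.14 and 19.6 CPM. Every Holstein sample lay above every Angus sample at 2 h and at 8 h, and at 0 h the overlap came from Angus animal 3 and Holstein animal 3. The level in Holstein was 3.02-fold that in Angus at 0 h (log2 1.59, SE 0.47, FDR 0.0126), 4.12-fold at 2 h (2.04, SE 0.41, FDR 6.35e-05) and 4.48-fold at 8 h (2.16, SE 0.53, FDR 0.00198). At 2 h and 8 h the call held without any 1 animal, with FDR up to 0.00126 and 0.0196.

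At 0 h the ABCA1 call depended on single samples. Without the 4 samples with another counting of COL1A1, which at 0 h are Angus animal 4 (1.52 CPM) and Holstein animals 2 and 4 (11 and 14.4 CPM), the log2 difference was 0.86 (FDR 0.6). It was 1.39 (FDR 0.0659) without Angus animal 1, 1.56 (FDR 0.0522) without Angus animal 2, 1.36 (FDR 0.0562) without Angus animal 4 and 1.35 (FDR 0.0728) without Holstein animal 4. The covered bases per ABCA1 count were 60.7 to 66.3 in the 4 samples and 58.0 to 65.5 in the other 20. At 2 h and 8 h Holstein animals 2 and 4, whose samples at those hours were counted as the rest, were again the highest of all 8 animals. The summed fibroblast markers were also higher in Holstein, a sum carried mainly by COL1A2 and COL3A1 (means of 27200 and 19100 CPM at 0 h). In Holstein animal 1 alone, the keratinocyte markers were higher as well. Of the 10 fibroblast markers, 3, 4 and 4 were higher in Holstein at 0 h, 2 h and 8 h (COL1A2, COL3A1 and FAP, with PDGFRB at 2 h and 8 h), and PDGFRA was lower at each hour (-0.93, -0.6 and -0.82). At the 3 hours, 6, 6 and 7 of the 10 were above 0 and 3, 4 and 3 below. Of 2 endothelial markers tested, VWF was higher at each hour (0.89, 1.11 and 1.31). The other, TEK, was past the limit at no hour (-0.11, 0.65 and 0.46). CD68, the 1 macrophage marker tested, was lower in Holstein at 0 h (-0.74, FDR 0.0346) and had -0.1 and -0.14 at 2 h and 8 h. Of 4 adipocyte markers tested, PPARG alone was past the limit, lower at 8 h (-0.83, FDR 0.0485). At that hour 2 of the 4 were above 0 and 2 below. The part of these markers in the ABCA1 difference was not tested. In bulk RNA, fewer cells of a kind and less RNA per cell cannot be told apart.

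CH25H was lower in Holstein at 2 h. Its levels at 2 h were 59.1, 25.5, 28.2 and 27.8 CPM in Angus and 12, 11.3, 17.6 and 13.4 CPM in Holstein, with no overlap. At 0 h they were 40.1, 23.4, 18.3 and 22.8 CPM in Angus and 15.9, 13.4, 27.8 and 22.4 CPM in Holstein, and at 8 h 48.2, 25.5, 22.6 and 23.5 CPM and 18.0, 17.7, 26.8 and 22.8 CPM. At both of these hours the breeds overlapped. The log2 difference was -1.38 (SE 0.29, FDR 8.94e-05) at 2 h, or 2.59-fold lower in Holstein, and -0.39 (95% interval -0.96 to 0.18, FDR 0.407) at 0 h and -0.48 (-1.01 to 0.04, FDR 0.214) at 8 h. Angus animal 1 was the highest sample at every hour, and leaving out each animal in turn gave -1.52 to -1.01 at 2 h, with FDR up to 0.00248.

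IDI1 and SQLE were also lower in Holstein after LPS. IDI1 differed by -0.64 (SE 0.21, FDR 0.0172) at 2 h and -0.56 (SE 0.2, FDR 0.0432) at 8 h, and by -0.33 (FDR 0.327) at 0 h. Its Holstein samples at 2 h and 8 h lay at or below the lowest Angus sample. SQLE differed by -0.52 (SE 0.19, FDR 0.0396) at 2 h, with overlap of the breeds. These 3 calls were near the limit. IDI1 at 2 h fell short without Angus animal 4 or Holstein animal 3 or 4 (FDR 0.0697 to 0.0771), and IDI1 at 8 h without Angus animal 2 or 4 or Holstein animal 3 or 4 (FDR 0.0943 to 0.175). SQLE fell short without Angus animal 2, 3 or 4 or Holstein animal 3 or 4 (FDR 0.0722 to 0.16), and the quasi-likelihood F test gave 0.0781 for IDI1 at 8 h and 0.0726 for SQLE. No breed difference of HMGCS1, INSIG1, SREBF1 or SREBF2 was past the limit at any hour, with log2 differences of -0.26 to 0.3.

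In counts, 1 of 8 genes differed between the breeds at 0 h (higher in Holstein, where 6.83% of rows were higher and 6.98% lower), 4 at 2 h (1 higher and 3 lower, against 10.4% and 9.71% of rows) and 2 at 8 h (1 higher and 1 lower, against 8.72% and 7.78%). Levels did not overlap for 0 genes at 0 h, for 3 at 2 h (ABCA1, CH25H and IDI1) and for 2 at 8 h (ABCA1 and IDI1). Over all rows the share without overlap was 17.3%, 24% and 20.4%. The 2-fold rule was met by ABCA1 at the 3 hours (upward in 1.73%, 2.43% and 2.21% of rows) and by CH25H at 2 h (downward in 2.02%).

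**Figure D5:**
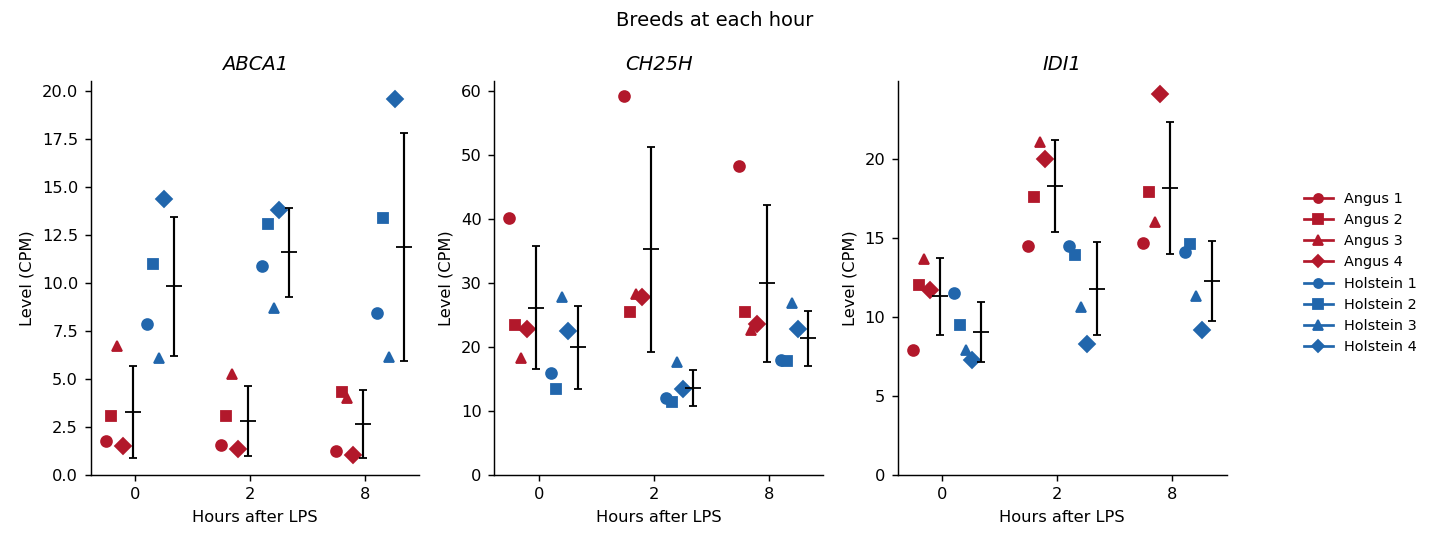
Levels of ABCA1, CH25H and IDI1 in CPM (vertical axis, from 0) by hour, with Angus in red and Holstein in blue. Symbols are animals, and the black dash and bar are the mean and SD of 4 animals. ABCA1 is higher in Holstein with no overlap at 2 h and 8 h, CH25H is lower in Holstein with no overlap at 2 h, and IDI1 is lower at 2 h and 8 h.

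A list of the oxysterol and export route held 12 genes that could be tested, CH25H and ABCA1 among them. At 0 h, 2 h and 8 h, 4, 4 and 6 of them were higher in Holstein, ABCA1 among them, and CH25H at 2 h was lower, where 6.83%, 10.4% and 8.72% of all rows were higher. Under the alternatives 1 to 7, 2 to 5 and 4 to 7 genes were higher. APOE, the lipid acceptor that leaves the cell with cholesterol, was higher in Holstein by 1.1 (SE 0.32, FDR 0.00851) at 0 h, 1.03 (SE 0.35, FDR 0.0219) at 2 h and 0.87 (SE 0.3, FDR 0.0328) at 8 h. PLTP, the phospholipid transfer protein, was higher by 0.84 (FDR 0.00253) at 0 h and 1.13 (FDR 0.00177) at 8 h, with 0.66 (FDR 0.119) at 2 h. HSD3B7, an enzyme of oxysterol and bile acid metabolism, was higher by 0.99, 0.88 and 0.8. NR1H3, which encodes liver X receptor alpha, had breed differences of 0.24 (FDR 0.287), 0.13 (FDR 0.509) and 0.17 (FDR 0.385), and was not past the limit with LPS in the fits without a block. In the blocked fit its change at 8 h in Holstein was -0.16 (FDR 0.0476). ABCG1, a related transporter, had at most a mean of 0.00818 CPM in any group, which is under the 0.029 to 0.059 CPM that 3 counts stand for, a limit for counting error only. The ABCG1 row held 10 reads over all samples and overlaps the row of LOC100847465. Whether ABCG1 reads were credited to that row was not tested, so its low count does not show that the gene is silent.

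CYP7B1, the hydroxylase that breaks down 25- and 27-hydroxycholesterol, showed the largest LPS change of this list at 8 h. Its levels at 0 h were 2.5, 2.7, 1.55 and 1.45 CPM in Angus and 1.92, 2.05, 1.91 and 1.63 CPM in Holstein. At 8 h they were 3.78, 5.37, 7.24 and 2.34 CPM in Angus and 10.1, 16.2, 7.51 and 13.8 CPM in Holstein, so that all Holstein samples lay above all Angus samples. The log2 fold change at 8 h was 2.07 (SE 0.32, FDR 3.09e-08) with both breeds together, 2.66 in Holstein (FDR 2.81e-22) and 1.19 in Angus (FDR 0.0442). The Angus call was near the limit, and it was lost without animal 1, 2 or 3 (FDR 0.126, 0.197 and 0.386), without the 4 samples named above (FDR 0.152) and with the quasi-likelihood F test (FDR 0.144). With a filter of 10 counts, no filter or only rows with a gene symbol its FDR was 0.0585, 0.0771 and 0.0532. The difference between these was 1.46 (FDR 0.389) without a block and 1.48 (FDR 0.00729) with the animal as a block. SCD was lower in Holstein at 0 h by -1.18 (SE 0.19, FDR 1.06e-07) and at 2 h by -0.79 (FDR 8.38e-05).

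The genes whose pattern over the 24 samples was most like that of a member were found by Pearson's r of log2(CPM + 1) among 12890 gene rows, as a description. Among the 3 rows nearest to HMGCS1 were SQLE (0.94) and LSS (0.94), and among those nearest to SQLE were HMGCS1 (0.94) and IDI1 (0.9). IDI1 was closest to SQLE (0.9), FDPS (0.86) and TCEA1 (0.85), and SREBF2 to INSIG1 (0.89), OBP (0.87) and BCL6 (0.86). The synthesis genes thus had each other or other enzymes of the route among their nearest rows. INSIG1 was closest to TMEM64 (0.91), CCDC120 (0.89) and LIMD1 (0.89), SREBF1 to SEMA3F (0.92), LOC100337439 (0.91) and TSPAN14 (0.9), CH25H to CCBE1, GFM1 and ZNRF2 (0.83 each), and ABCA1 to IGF2BP2 (0.97), DNASE1L1 (0.96) and MGP (0.95). These samples share hours, breeds and animals.

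After the group means were removed, so that what is left is the difference between animals and wells within a group, HMGCS1 and SQLE still had an r of 0.98, HMGCS1 and IDI1 0.91, and INSIG1 and SREBF2 0.85. CH25H ran opposite to the synthesis genes, with -0.76 for HMGCS1, -0.75 for SQLE and -0.7 for IDI1. Within a group, samples with more HMGCS1 tended to have less CH25H. Among the Angus samples, animal 1 had the highest CH25H and the lowest HMGCS1 at every hour, and r without it was not computed. ABCA1 had 0.59 with SREBF1. The 24 values of each gene include 3 samples of each animal, so they are not independent.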

How the data were processed

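RNA-Seq data of 24 samples were used. Per the file headers and the study's methods, the authors aligned the reads to UMD v3.1 with NextGENe 2.3.4 and deposited raw read counts per row, and the deposited mean coverage signal of each row was used only to compute covered bases per count. The labels name CASAVA 1.7. Summed counts were 1.5 to 1.712 times the matched reads, so a read can be credited to more than 1 row. Exon and UTR annotation of this build was not used here.

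Counts were fitted with edgeR 4.0.16 (R 4.3.3): TMM scaling, rows of 1 CPM or more in at least 50% of the samples compared, a GLM likelihood-ratio test and Benjamini-Hochberg adjustment over all rows (FDR). A fit held only the samples compared and no animal block, after the study's methods. Standard errors and 95% intervals came from the fitted model. Levels are TMM-scaled CPM, and changes within an animal used log2(CPM + 0.1). The test without a block was also run on simulated counts. These held no animal effect, so that run does not cover samples paired by animal.

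Labels number the animals, and same-numbered samples of a breed come from 1 animal. Their deviations from group means correlated at 0.55 to 0.75 (0 h and 2 h), 0.53 to 0.75 (0 h and 8 h) and 0.43 to 0.73 (2 h and 8 h). Counts of replicates differed beyond sampling noise in all 36 within-group pairs.

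The 8 genes and all gene lists were chosen with earlier results of these data known. The 8 genes, INSIG2, NR1H3, ABCG1 and list genes past the 2-fold rule were named by rule. Other list genes were named after their values were seen. STARD4 had no row under this symbol. Some genes of the lists are not reported here and are not in the list counts. Alternatives were the quasi-likelihood F test, DESeq2 1.42.0, RLE and total count scaling, other filters, all 24 samples in 1 fit, the animal block and leaving out animals or 4 samples.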

Additional observations from a re-analysis of the deposited data

Results flagged for a closer look

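In 7 of 96 groups of 4 animals, over the 8 genes and the other genes named by rule, 1 animal lay far from the rest for the spread of its group, where chance gives about 1 in 20. The measure was the gap to the next animal relative to the range of the 4, so a small gap in CPM can count. CH25H in Angus animal 1 was 59.1 CPM at 2 h (next 28.2) and 48.2 CPM at 8 h (next 25.5). HMGCS1 was lowest in the same animal at 2 h, with 57.7 CPM (next 87.7). SREBF2 in Angus animal 3 was 71.3 CPM at 0 h (next 53.0). In Holstein animal 2, SCD was 32.0 CPM at 8 h (next 20.5), CYP7B1 was 4.21 CPM at 2 h (next 2.57) and INSIG2 was 35.5 CPM at 8 h, the lowest of its group (next 37.0) by a small gap.

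The change from 0 h to 2 h had 1 direction in all Angus animals and the other in all Holstein animals for 2 of the 8 genes. For CH25H the Holstein minus Angus difference in log2 change was -0.97 (edgeR likelihood-ratio FDR 0.943 without a block and 3.06e-07 with one), and for SREBF1 it was 0.33 (FDR 1 without a block and 0.00545 with one). The difference passed the test of the interaction in the blocked fits only.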

How the results depend on the processing

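Over 1640 values of the 8 genes under alternatives, 1549 kept their direction and side of the FDR limit, 52 fell short of it, 39 moved past it and 0 reversed, while 31 values with no call changed sign. The count of genes past the limit moved by over 1.5 times as follows, and the cause was not tested. With both breeds at 2 h it was 3 in place of 5 with total count scaling and 3 without the 4 samples with another COL1A1 counting. In Holstein at 8 h it was 1 in place of 3 without these samples, and between breeds at 0 h 0 in place of 1. The quasi-likelihood F test gave 1 in place of 3 in Angus at 8 h, 0 in place of 1 between breeds at 0 h and 1 in place of 2 at 8 h. With no filter, or all 24 samples in 1 fit, it was 1 at 8 h between breeds. The replicate block, with animals paired by label, gave 7 in place of 3 in Holstein at 2 h (6 with the F test), 7 in place of 4 in Angus at 2 h (7 with the F test) and 4 in place of 0 for the interaction at 2 h (3 with the F test), and it ended no call of the 8 genes. Leaving out 1 animal gave 0 to 5 genes in Angus at 8 h, 0 to 1 between breeds at 0 h, 2 to 4 at 2 h and 1 to 2 at 8 h. Total count scaling shifted the median of all rows by 0.138 (8 h against 2 h), -0.123 (Angus at 2 h), -0.102 (breeds at 0 h) and 0.109 (interaction at 2 h).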

Other observations

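Intervals without a gene symbol that adjoin 5 of the 8 genes were counted apart from them. The interval next to ABCA1 (chromosome 8 from 96252154 to 96274034) was higher in Holstein at 0 h, 2 h and 8 h, by 1.7, 2.26 and 2.3 on the log2 scale (FDR 0.00573, 0.00146 and 0.00646), in the edgeR likelihood-ratio test. That next to SQLE (chromosome 14 from 16745627 to 16756963) was higher at 2 h by 0.91 (FDR 1.09e-06) and at 8 h by 0.66 (FDR 0.00198), and that next to IDI1 (chromosome 13 from 46685838 to 46689062) at 2 h by 0.51 (FDR 0.0179), with 0.44 (FDR 0.0915) at 8 h. Between breeds at 2 h, where SQLE and IDI1 were past the limit, these intervals had -0.45 (FDR 0.0808) and -0.46 (FDR 0.104), and at 8 h that next to IDI1 had -0.49 (FDR 0.129). The interval before SREBF2 had -0.08 (FDR 0.824) at 2 h, where the gene had 0.29. For SREBF1 the intervals on either side differed from the gene. That after it starts at 35263547 and does not adjoin the gene, which ends at 35250672. The interval before it (chromosome 19 from 35228885 to 35234636) had -0.33 (FDR 0.04) at 8 h, and that after it (from 35263547 to 35389674) had 0.04 (FDR 0.901), where SREBF1 had -0.62. At 2 h the interval after it had 0.54 (FDR 0.0102), where SREBF1 had -0.06. Reads at the ends of a transcript can be credited to adjoining intervals, and how many were was not tested.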
